A study of Mus musculus with 2 samples.

Results

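The genes of glutathione, peroxiredoxin and thioredoxin defence were followed through long-read RNA sequencing of mouse adrenal glands. The members were all genes whose symbol names a glutathione transferase, glutathione peroxidase, peroxiredoxin, thioredoxin, thioredoxin reductase, thioredoxin-domain protein, glutaredoxin, superoxide dismutase, catalase, sulfiredoxin or an enzyme of glutathione synthesis and recycling. The annotation held 67 such symbols, and 61 of them had reads, out of 18177 annotated genes with reads in all. All 61 were read in replicate 2, in 470 transcript models, and 58 in replicate 1, in 447 models. The series held 1 group, adrenal tissue of male B6CASTF1/J mice aged 14 days, an F1 hybrid of the strains C57BL/6J and CAST/EiJ, with no treatment or mutation named and 2 libraries called replicate 2 and replicate 1. The labels name a set of 3 males, number the biosamples 4 for replicate 2 and 3 for replicate 1, and give both the same donor, so it is not known whether separate animals were used, and every p-value below measures only how these libraries differ.

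These genes form a defence of the cell against superoxide and peroxides, much of it thiol-based. Superoxide dismutases turn superoxide into hydrogen peroxide, and catalase, the glutathione peroxidases and the peroxiredoxins then remove it. Glutathione and thioredoxin supply the electrons for the glutathione peroxidases and the peroxiredoxins, and both are brought back to their reduced forms at the expense of NADPH. Glutathione transferases join glutathione to reactive compounds. In the adrenal cortex, steroid hormones are made by mitochondrial cytochrome P450 enzymes, which can leak electrons to oxygen, and in mice a cycle of mitochondrial Prdx3 oxidation and its repair by Srxn1 is known to limit corticosterone synthesis.

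Several of the enzymes carry selenocysteine, an amino acid written by a TGA codon that would otherwise stop translation. The codons are shown because they mark the members whose protein depends on selenium and because they lie in 2 different places. Each sequence is given 5′ to 3′ from the GENCODE M21 transcript, on the coding strand, with the selenocysteine codon in capitals.

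Gpx1: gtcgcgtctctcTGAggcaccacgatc

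Gpx3: gtagccagctacTGAggtctgacagac

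Gpx4: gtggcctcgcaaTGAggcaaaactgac

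Txnrd1: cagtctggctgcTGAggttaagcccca

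Txnrd2: gtgactggttgcTGAggctaagtcacc

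Txnrd3: cagaaaggctgcTGAggctagccctgc

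In the 3 peroxidases the codon stands inside the reading frame, and in the 3 reductases it is followed by 1 glycine codon and then by an ordinary stop codon. The codons lie at chr9:108339451-108339453 in Gpx1, chr11:54907256-54907258 in Gpx3, chr10:80054737-80054739 in Gpx4, chr10:82896037-82896039 in Txnrd1, chr16:18477772-18477774 in Txnrd2 and chr6:89674789-89674791 in Txnrd3 (mm10, plus strand).

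The start of Gstz1, whose use differed between the libraries, is shown for both of its main transcripts. The coding bases of the first exon are in capitals and the first 15 bases of the shared next exon, which begins at chr12:87157893, are in lower case.

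Gstz1-204: ATGGCTGACAAGcctatcctctactcc

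Gstz1-201: ATGCAAGCCGGGAAGcctatcctctactcc

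The first exon of Gstz1-204 spans chr12:87157608-87157660 and that of Gstz1-201 spans chr12:87147718-87147844, 9890 bases upstream (mm10, plus strand). The annotated coding sequences have 215 codons in Gstz1-204 and 216 codons in Gstz1-201. The promoter window of the Gstz1-204 start, chr12:87157353-87157652 (GRCm38.p6, plus strand, from RefSeq's table), covers the first bases of that exon, and its 3 CG dinucleotides are in fewer number than the 7 of the median window.

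Gstz1 downstream promoter: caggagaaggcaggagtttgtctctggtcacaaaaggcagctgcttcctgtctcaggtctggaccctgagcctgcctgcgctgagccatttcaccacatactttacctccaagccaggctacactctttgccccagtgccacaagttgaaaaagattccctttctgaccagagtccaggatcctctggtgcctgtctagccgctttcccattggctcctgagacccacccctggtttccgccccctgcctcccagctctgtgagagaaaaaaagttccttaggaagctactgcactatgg

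The other Gstz1 window in that table, chr12:87146915-87147214, lies upstream of the Gstz1-201 exon and holds 15 CG dinucleotides.

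Replicate 2 gave 1003061 reads and replicate 1 gave 981697 reads in transcript models, and without ERCC spike-ins 985101 remained in replicate 2 and 964815 in replicate 1. Levels are given in CPM, reads scaled to a total of 1000000 of that remainder. No division by length was made, since each long read is counted once whatever its length. Whether short and long transcripts were captured equally was not tested, so comparisons between genes are of reads. A count of 0 allows up to 3.05 CPM in replicate 2 against 3.11 CPM in replicate 1, the level of 3 reads. Markers of the steroid-producing cortex summed to 40177 CPM in replicate 2 against 40818 CPM in replicate 1. Those of chromaffin cells summed to 7975 CPM in replicate 2 against 8208 CPM in replicate 1, so markers of both cell types were read in each library. By the test described below, 4 of 8 cortex markers were higher in replicate 1 and 1 in replicate 2. The cortex markers' ratios of replicate 2 over replicate 1 lay between 0.644 and 1.16. Of 6 chromaffin markers, 2 were higher in replicate 1. The 8 hepatocyte markers stood apart at 15655 CPM in replicate 2 against 754 CPM in replicate 1, with ratios of replicate 2 over replicate 1 between 16.8 and 27.9 and none at 0. Of 5 kidney markers, 4 had no reads in either library. Markers of fat (9940 CPM in replicate 2 against 10007 CPM in replicate 1) and of red cells (14470 CPM in replicate 2 against 14576 CPM in replicate 1) were read at similar sums. By the same test, 2 of 5 red-cell markers were higher in replicate 1 and no fat marker differed.

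Together the members took 13328 CPM in replicate 2 against 12452 CPM in replicate 1, a mean of 12890 ± 619 CPM (SD, n = 2), or 1.33% of the reads in replicate 2 and 1.25% in replicate 1. The peroxiredoxins with sulfiredoxin formed the most read group, with 31.1% of the members' reads in replicate 2 and 29.5% in replicate 1, followed by the glutathione peroxidases with 17.8% in replicate 2 and 19.2% in replicate 1. The microsomal transferases had 10.3% in replicate 2 and 8.18% in replicate 1, and the superoxide dismutases with catalase 8.77% in replicate 2 and 9.79% in replicate 1. The glutaredoxins had 8.48% in replicate 2 and 8.91% in replicate 1, and the thioredoxins with their reductases 7.37% in replicate 2 and 8.71% in replicate 1. Reads were uneven within the family: 41 members had at least 100 reads over both libraries, 14 had between 10 and 99, and 6 had fewer than 10.

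A gene was called different between the libraries when its reads in the libraries gave, by a two-sided exact binomial test, an adjusted p under 0.05 (Benjamini-Hochberg over all 11094 genes that had 10 reads or more in total). Of the 55 members tested, 8 were called, or 14.5%, beside 9.17% of all genes tested. Higher in replicate 2 were 7 members (Gsta3, Gstp3, Gstz1, Mgst1, Gpx1, Prdx1 and Prdx2), beside 4.35% of all genes, and higher in replicate 1 was 1 member (Gpx3), beside 4.81% of all genes. The median log2 ratio, replicate 2 over replicate 1, was 0.11 over the tested members and -0.15 over all genes tested, and 32 of 55 members (58.2%) had a ratio above 1, against 36.8% of all genes. Scaling by the trimmed mean of M-values (TMM) moved every log2 ratio up by 0.15 and called 11 members higher in replicate 2 and 1 lower, beside 7.86% of all genes called in either direction. Scaling by the spike-ins called 5 members higher and 2 lower, beside 10.3% of all genes. Small differences are called more readily in genes with many reads, so the shares depend on the count minimum. With a minimum of 50 reads, 14.6% of the members tested were called, beside 14.5% of all genes. With an added 2-fold threshold, 3.64% of the members were called, beside 4.54% of all genes. Since these are bulk libraries, fewer cells of a type and less RNA per cell cannot be told apart.

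**Figure D1:**
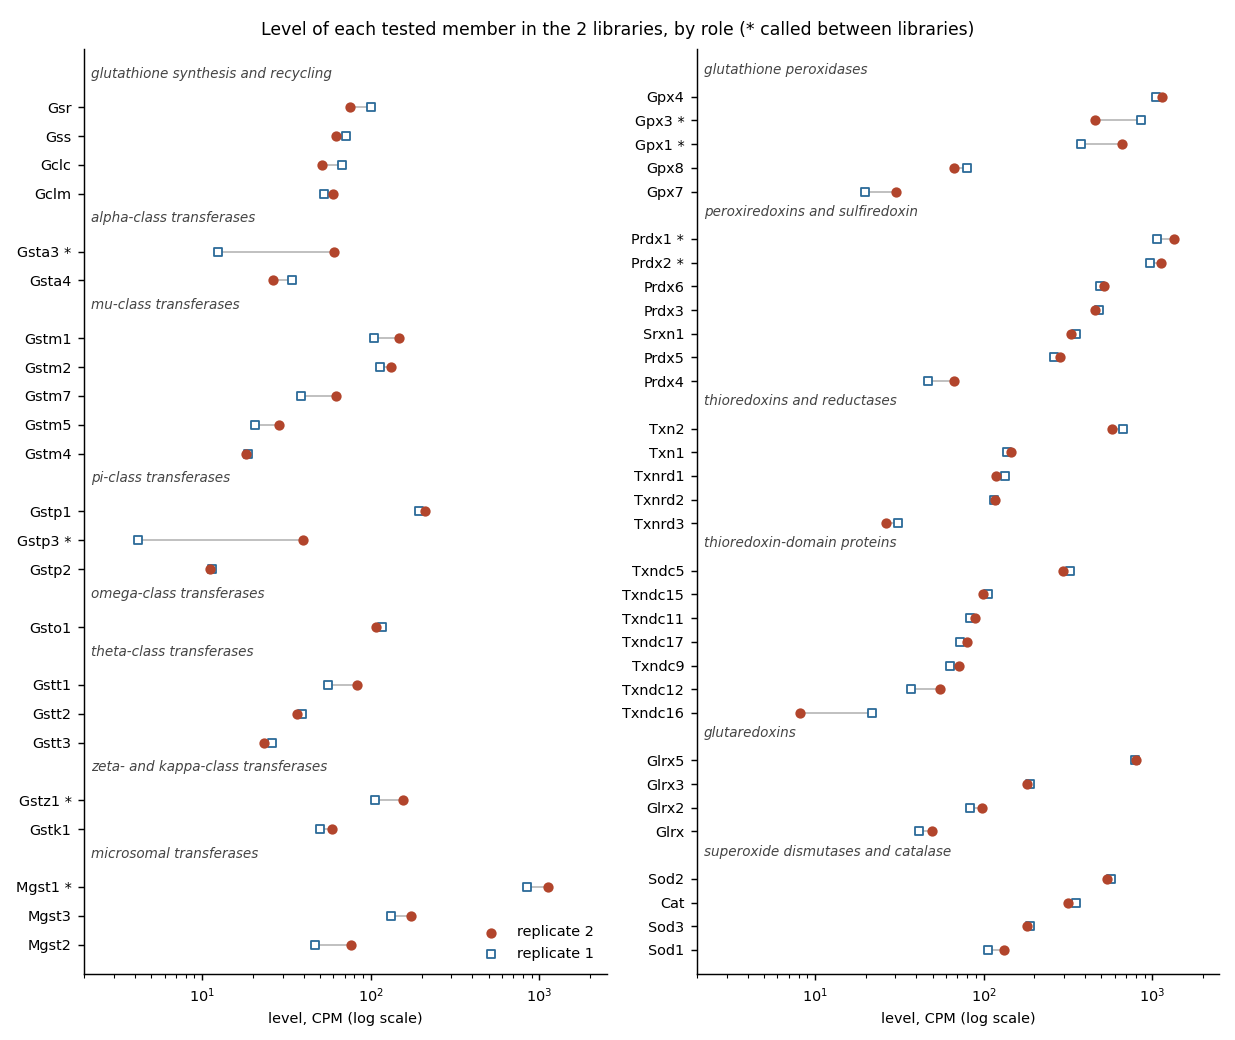
Level of the 55 tested members in replicate 2 (filled circles) and replicate 1 (open squares), in CPM on a log axis, grouped by role and ordered by mean level, with an asterisk for the 8 called members. Most pairs of points touch, while Gsta3 and Gstp3 lie far apart and Gpx1 and Gpx3 are displaced in opposite directions.

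Glutathione is made by glutamate-cysteine ligase, whose catalytic subunit is Gclc and whose modifier subunit is Gclm, and by glutathione synthetase, Gss, while Gsr returns oxidised glutathione to the reduced form. The 4 genes summed to 249 CPM in replicate 2 against 292 CPM in replicate 1, the ratio of the sums being 0.851 (95% interval 0.714 to 1.01), and none of the 4 was called. Gclc was read at 51.8 CPM in replicate 2 against 67.4 CPM in replicate 1, and Gclm at 59.9 CPM in replicate 2 against 52.9 CPM in replicate 1. Of the 2 ligase subunits, Gclm was thus the more read in replicate 2 and Gclc in replicate 1. Gss had 61.9 CPM in replicate 2 against 71.5 CPM in replicate 1, and Gsr had 75.1 CPM in replicate 2 against 101 CPM in replicate 1. The whole path of synthesis and recycling was far less read than the peroxidases it feeds.

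Among the glutathione transferases, the membrane-bound Mgst1, which conjugates glutathione and reduces lipid peroxides in the endoplasmic reticulum and the outer mitochondrial membrane, was the main one. Mgst1 (chr6:138140316-138156755, plus strand) had 1108 reads in replicate 2 and 811 in replicate 1, or 1125 CPM in replicate 2 against 841 CPM in replicate 1. Its ratio was 1.34 (1.22 to 1.47), higher in replicate 2 with an adjusted p of 1.51e-08 by the exact binomial test. Mgst2 and Mgst3, relatives of leukotriene C4 synthase, had no call: Mgst2 was read at 76.1 CPM in replicate 2 against 46.6 CPM in replicate 1, and Mgst3 at 174 CPM in replicate 2 against 132 CPM in replicate 1. All 3 microsomal members thus had ratios above 1, and with TMM scaling all 3 were called.

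The soluble transferases were spread over many genes. Of the mu class, Gstm1 had 146 CPM in replicate 2 against 105 CPM in replicate 1 and Gstm2 had 132 CPM in replicate 2 against 113 CPM in replicate 1, neither called. The other 5 mu-class members had between 0 and 61 reads per library, and the class of 7 had no call among 5 tested. The pi-class enzyme Gstp1, an abundant cytosolic transferase, had 209 CPM in replicate 2 against 193 CPM in replicate 1. Gstp1 and Gstp2 share much of their sequence, 67.5% of the 31-base words of Gstp1-201 being found in Gstp2-201, so the split of their reads is uncertain, and the 11 reads of Gstp2 in each library are to be read with that limit. The omega-class Gsto1, which reduces dehydroascorbate, had 108 CPM in replicate 2 against 117 CPM in replicate 1, and the theta-class Gstt1 had 83.2 CPM in replicate 2 against 56.0 CPM in replicate 1. The mitochondrial and peroxisomal kappa-class Gstk1 had 58.9 CPM in replicate 2 against 49.8 CPM in replicate 1.

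The largest differences between the libraries fell on 2 sparsely read transferases. Gsta3 (chr1:21240589-21265661, plus strand), whose human counterpart isomerises precursors of progesterone and androgens, had 60 reads in replicate 2 and 12 in replicate 1, or 60.9 CPM in replicate 2 against 12.4 CPM in replicate 1. Its ratio was 4.90 (lower bound of the 95% interval 2.61) with an adjusted p of 4.84e-07 by the exact binomial test. Gstp3 (chr19:4057477-4059569, minus strand), a pi-class gene, had 39 reads in replicate 2 and 4 in replicate 1, or 39.6 CPM in replicate 2 against 4.15 CPM in replicate 1. Its ratio was 9.55 (3.45 to 36.8) with an adjusted p of 1.61e-06 by the same exact test. Among the called members, these were the 2 whose libraries differed at least 2-fold. The other alpha-class gene tested, Gsta4, had 26 reads in replicate 2 and 33 in replicate 1, and Gsta1 had 1 read and Gsta2 4 reads in replicate 2, both with 0 in replicate 1. All 8 hepatocyte markers were higher in the same library as Gsta3 and Gstp3, and their part in these differences was not tested.

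Gstz1 (chr12:87147165-87164723, plus strand), the zeta-class enzyme that isomerises maleylacetoacetate in tyrosine breakdown, had 153 reads in replicate 2 and 102 in replicate 1. That was 155 CPM in replicate 2 against 106 CPM in replicate 1, a ratio of 1.47 (1.14 to 1.91) with an adjusted p of 0.0329 by the exact binomial test. The call was lost with known models alone (ratio 1.40, adjusted p 0.187), with full-splice reads only, with no count minimum, under spike-in scaling and with the negative binomial test.

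The glutathione peroxidases were the group with a called member in each direction. Their sum hardly differed, at 2368 CPM in replicate 2 against 2386 CPM in replicate 1. Gpx1 (chr9:108338903-108340343, plus strand), the cytosolic and mitochondrial peroxidase that removes hydrogen peroxide, had 653 reads in replicate 2 and 366 in replicate 1, or 663 CPM in replicate 2 against 379 CPM in replicate 1. Its ratio was 1.75 (1.54 to 1.99), higher in replicate 2 with an adjusted p of 3.97e-16 by the exact binomial test. Gpx3 (chr11:54902453-54910377, plus strand), the secreted peroxidase of plasma, had 452 reads in replicate 2 and 830 in replicate 1, or 459 CPM in replicate 2 against 860 CPM in replicate 1. Its ratio was 0.533 (0.475 to 0.599), lower in replicate 2 with an adjusted p of 8.91e-26 by the same exact test. Gpx1 was therefore the more read of the 2 in replicate 2 and Gpx3 in replicate 1. The hepatocyte markers were higher where Gpx1 was higher, and their part in the difference was not tested.

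Gpx4, which reduces phospholipid hydroperoxides in membranes and thereby holds back ferroptosis, was the most read peroxidase and the second most read member. Gpx4 had 1149 CPM in replicate 2 against 1047 CPM in replicate 1, a ratio of 1.10 (1.01 to 1.20) that was not called (adjusted p 0.198 by the exact binomial test). It was called higher in replicate 2 under TMM scaling (ratio 1.22) and with known models only (ratio 1.14). The peroxidases of the endoplasmic reticulum, Gpx7 and Gpx8, which use cysteine in place of selenocysteine, were far less read. Gpx8 had 67.0 CPM in replicate 2 against 79.8 CPM in replicate 1, and Gpx7 had 30 reads in replicate 2 and 19 in replicate 1, neither called. Gpx2, Gpx5 and Gpx6 had no reads in either library, as had Gstt4, Prdx6b and Txndc8.

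The peroxiredoxins, which reduce peroxides with a cysteine that thioredoxin restores, held the most read member. Prdx1 (chr4:116685544-116700822, plus strand), a cytosolic peroxiredoxin, had 1332 reads in replicate 2 and 1036 in replicate 1, or 1352 CPM in replicate 2 against 1074 CPM in replicate 1. Its ratio was 1.26 (1.16 to 1.37), with an adjusted p of 1.23e-06 by the exact binomial test. Prdx2 (chr8:84969587-84974834, plus strand), its cytosolic relative that is abundant in red cells, had 1111 reads in replicate 2 and 934 in replicate 1, or 1128 CPM in replicate 2 against 968 CPM in replicate 1. Its ratio was 1.17 (1.07 to 1.27), with an adjusted p of 0.0108 by the same exact test. The call was lost with known models only (ratio 1.13, adjusted p 0.154), with full-splice reads only, under spike-in scaling and with the negative binomial test. Both cytosolic forms were thus higher in replicate 2, by smaller ratios than Gpx1.

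The organelle peroxiredoxins had no call. Prdx3, the mitochondrial form, had 458 CPM in replicate 2 against 483 CPM in replicate 1. Srxn1, which repairs peroxiredoxins whose cysteine has been overoxidised, had 330 CPM in replicate 2 against 354 CPM in replicate 1. The pair known for its oxidation cycle in steroid-producing mitochondria was therefore read at similar levels in both libraries, with ratios of 0.948 for Prdx3 (0.831 to 1.08) and 0.931 for Srxn1 (0.797 to 1.09), both of which turned above 1 under TMM scaling without a call. Prdx5, found in mitochondria, peroxisomes and cytosol, had 285 CPM in replicate 2 against 262 CPM in replicate 1, and Prdx6, which works with glutathione in place of thioredoxin, had 520 CPM in replicate 2 against 490 CPM in replicate 1. Prdx4, the form of the endoplasmic reticulum, was the least read, at 67.0 CPM in replicate 2 against 46.6 CPM in replicate 1.

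Of the 2 thioredoxins, which carry electrons to the peroxiredoxins, the mitochondrial one was the more read. Txn2, mitochondrial thioredoxin, had 575 CPM in replicate 2 against 669 CPM in replicate 1, a ratio of 0.859 (0.766 to 0.964) that was not called (adjusted p 0.0817 by the exact binomial test), though spike-in scaling called it lower in replicate 2. Txn1, cytosolic thioredoxin, had 146 CPM in replicate 2 against 137 CPM in replicate 1, so that Txn2 exceeded it in both libraries. The selenocysteine-bearing reductases of cytosol and mitochondria had similar levels. Txnrd1, the cytosolic reductase, had 119 CPM in replicate 2 against 134 CPM in replicate 1, and Txnrd2, the mitochondrial one, had 117 CPM in replicate 2 against 115 CPM in replicate 1. Txnrd3, a thioredoxin and glutathione reductase known from testis, had 26 reads in replicate 2 and 30 in replicate 1.

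The glutaredoxins were led by a mitochondrial form. Glrx5, needed for mitochondrial iron-sulfur cluster assembly, had 802 CPM in replicate 2 against 795 CPM in replicate 1, a ratio of 1.01 (0.912 to 1.12). Glrx3, a cytosolic iron-sulfur carrier, had 180 CPM in replicate 2 against 190 CPM in replicate 1, and Glrx2, a mitochondrial and nuclear form, had 98.5 CPM in replicate 2 against 82.9 CPM in replicate 1. None of the 4 glutaredoxins was called, the fourth, cytosolic Glrx, having 49 reads in replicate 2 and 40 in replicate 1.

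Among the superoxide dismutases the mitochondrial form was read more than the cytosolic one. Their leading transcripts differ in length, 5861 bases in Sod2-201 and 641 in Sod1-201, and capture by length was not tested. Sod2, the manganese enzyme of the mitochondrial matrix, had 538 CPM in replicate 2 against 572 CPM in replicate 1. Sod1, the cytosolic copper-zinc enzyme, had 133 CPM in replicate 2 against 106 CPM in replicate 1, and Sod3, the extracellular form, had 181 CPM in replicate 2 against 190 CPM in replicate 1. Sod2 was therefore the most read in each library. Cat, the peroxisomal catalase, had 317 CPM in replicate 2 against 351 CPM in replicate 1. None of these 4 genes was called, and 3 of the 4 ratios were below 1, all 3 turning above 1 under TMM scaling.

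Of the 8 thioredoxin-domain proteins, 7 were tested and none was called. Txndc5, a disulfide isomerase of the endoplasmic reticulum, led with 294 CPM in replicate 2 against 323 CPM in replicate 1. Txndc15 had 99.5 CPM in replicate 2 against 107 CPM in replicate 1, and Txndc11, a partner of the dual oxidases, had 89.3 CPM in replicate 2 against 82.9 CPM in replicate 1. By all reads, the 3 most read genes of this group thus differed by little between the libraries. A 75-base genomic model held 48 of 88 Txndc11 reads in replicate 2 and 31 of 80 in replicate 1. Known models of Txndc11 held 22 reads in replicate 2 and 28 in replicate 1. Those of Txndc17 held more, 78 in replicate 2 and 69 in replicate 1. Txndc17, a cytosolic thioredoxin-like protein, had 80.2 CPM in replicate 2 against 72.6 CPM in replicate 1, and Txndc9, which binds the chaperonin TRiC, had 71.1 CPM in replicate 2 against 63.2 CPM in replicate 1. The lowest ratio among all tested members was that of Txndc16, with 8 reads in replicate 2 and 21 in replicate 1, and it was not called. Txndc2, a testis thioredoxin, had 1 read in replicate 2 and 6 in replicate 1.

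**Figure D2:**
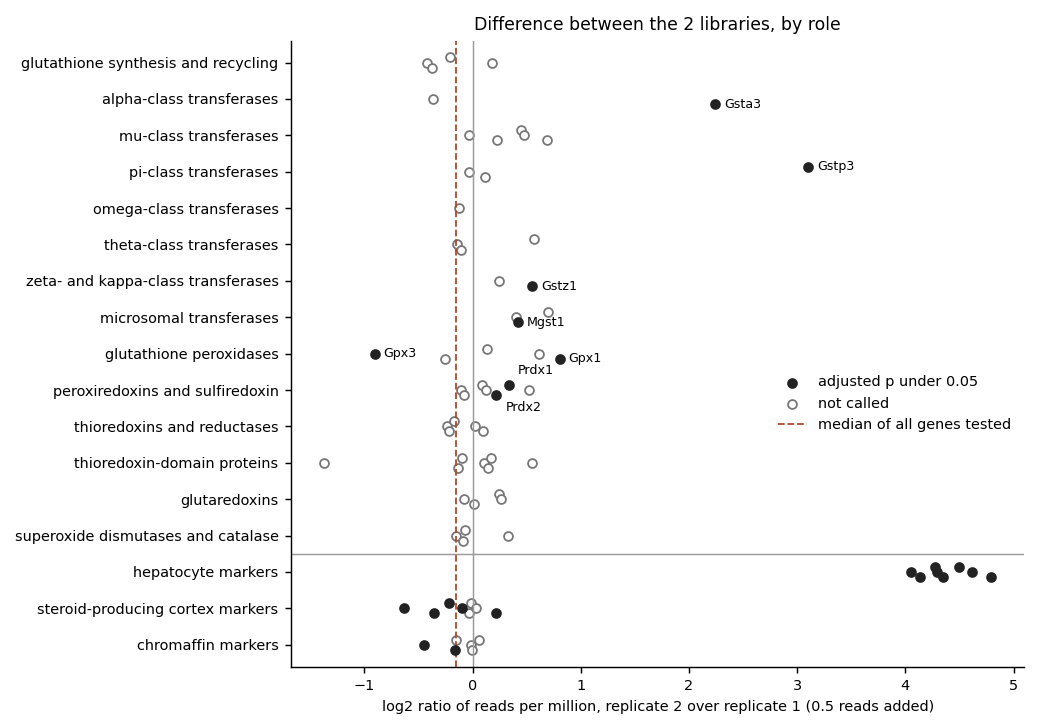
The log2 ratio of replicate 2 over replicate 1, with 0.5 reads added per library, for each tested member by role, and below the line for markers of hepatocytes, steroid-producing cortex and chromaffin cells. Filled points had an adjusted p under 0.05, and the dashed line marks the median of all genes tested at -0.15. The hepatocyte markers lie above 4, beyond every member, and Gstp3 at 3.10 and Gsta3 at 2.24 are the members nearest to them.

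Genes of the same pathways that were no members were counted from a list of 46 symbols, of which 1 had 2 gene identifiers. Of its 40 tested genes, 3 had a call towards replicate 2, 2 had a call towards replicate 1 and 35 had none, beside 9.17% of all genes called in either direction, and the median log2 ratio was -0.03, against -0.15 over all genes tested. Selenop, the selenium carrier of plasma that is made chiefly in liver, had 527 reads in replicate 2 and 269 in replicate 1, a ratio of 1.92 with an adjusted p of 7.14e-17 by the exact binomial test. Mt1, a metal-binding metallothionein, had 237 reads in replicate 2 and 160 in replicate 1 (adjusted p 0.00606, exact binomial test), and its relative Mt2 was called in the same direction with fewer reads. Txnip, the inhibitor of thioredoxin, had 72 reads in replicate 2 and 128 in replicate 1, a ratio of 0.551 with an adjusted p of 0.00103 by the same test. Oxr1, an oxidation-resistance gene, had 121 reads in replicate 2 and 168 in replicate 1 (adjusted p 0.0441, exact binomial test). Thus the carrier of selenium was higher in the library in which Gpx1 was higher, while the selenoenzyme Gpx3 was lower in it. Neither Nfe2l2, the activator of antioxidant genes, nor its inhibitor Keap1 was called.

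The members were read mostly as a single, known transcript. Reads were assigned by their intron chain, and full-splice reads are those of known chains and of new chains that use annotated sites in a new combination or hold an unannotated site. Of the 48 members that reached 20 full-splice reads in each library, 36 (75%) had a leading chain with over 90% of those reads, against 47.3% of 5155 such genes in all. A second chain with at least 10% was found in 7 of the 48 (14.6%), against 29.2% of all. The leading chain was tested against all other chains in 47 members (Fisher's exact test, two-sided, adjusted over 4817 genes), and 1 member was called, beside 0.125% of all genes tested (6 genes). The unadjusted p was under 0.05 for 2 of the 47.

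The called gene was Gstz1, whose starts are printed above. Gstz1-204, which begins at the downstream exon, held 67 of 117 full-splice reads in replicate 2 (57.3%, Wilson 95% interval 48.2 to 65.9) and 24 of 85 in replicate 1 (28.2%, 19.8 to 38.6). Gstz1-201, which begins at the upstream exon, held 35 reads in replicate 2 (29.9%) and 50 in replicate 1 (58.8%). The leading start was thus the downstream one in replicate 2 and the upstream one in replicate 1, with non-overlapping intervals (adjusted p 0.0439, Fisher's exact test). Counted by the junction into the shared exon alone, 72 of 117 reads came from the downstream exon in replicate 2 and 26 of 85 in replicate 1. The Gstz1-201 exon gave 43 such reads in replicate 2 and 55 in replicate 1. The downstream start was more used in the library whose hepatocyte markers were higher, and their part in it was not tested.

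The other gene with an unadjusted p under 0.05 was Gpx8. Gpx8-202, which skips the middle of 3 exons and has an annotated reading frame of 90 codons against 209 in Gpx8-201, had 6 of 63 full-splice reads in replicate 2 (9.52%) and 18 of 74 in replicate 1 (24.3%). The adjusted p was 0.861 by Fisher's exact test, so the difference was not called.

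Txnrd2 was the sole member of the 48 whose leading chain was not annotated (2.08%), beside 3.43% of the 5155 such genes in all. A chain of 17 exons held 64 of 87 full-splice reads in replicate 2 (73.6%, 63.4 to 81.7) and 75 of 92 in replicate 1 (81.5%, 72.4 to 88.1). It differs from the annotation at 1 junction, where exon 8 ends at chr16:18443286 in place of chr16:18443274 and is joined to an exon that begins at chr16:18454476 (mm10, plus strand). All 8 annotated transcripts that hold both flanking exons place 20 bases between them, in 2 versions, and these are printed in capitals between 15 flanking bases on each side because no such transcript was frequent in the reads.

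Txnrd2-203: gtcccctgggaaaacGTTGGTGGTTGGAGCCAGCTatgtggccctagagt

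Txnrd2-212: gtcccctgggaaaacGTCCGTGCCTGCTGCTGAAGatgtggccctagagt

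The first version, shared by 6 transcripts, comes from an exon of 20 bases at chr16:18453721-18453740, and the second, shared by 2, from an exon of 7 bases at chr16:18451971-18451977 and the first 13 bases of the next. The unannotated chain has 25 bases in that place, 12 at the end of exon 8 and 13 before the usual start of the next exon at chr16:18454489, which is 5 more than the annotation. Over all Txnrd2 reads that leave exon 8, this junction was used by 73 of 85 in replicate 2 (85.9%) and 80 of 86 in replicate 1 (93.0%). The annotated junction to the 20-base exon was used by 2 of 85 in replicate 2 and 1 of 86 in replicate 1. The positions are those of the deposited alignment-based models. Neither the bases of the reads themselves nor the reading frame of this chain was analysed here.

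Txnrd1 was read from 2 first exons. Txnrd1-208 held 82 of 110 full-splice reads in replicate 2 (74.5%) and 81 of 120 in replicate 1 (67.5%), Txnrd1-206, which begins at a longer form of the second exon of Txnrd1-208, held 17 in replicate 2 and 21 in replicate 1, and Txnrd1-201, which skips that exon, held 5 in replicate 2 and 13 in replicate 1. All 3 share the annotated start codon at chr10:82874649-82874651 and a coding sequence of 499 codons, so these forms differ before the start codon. The share of Txnrd1-208 against all other chains was not called different between the libraries (adjusted p 1, Fisher's exact test), and the other forms were not tested singly.

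**Figure D3:**
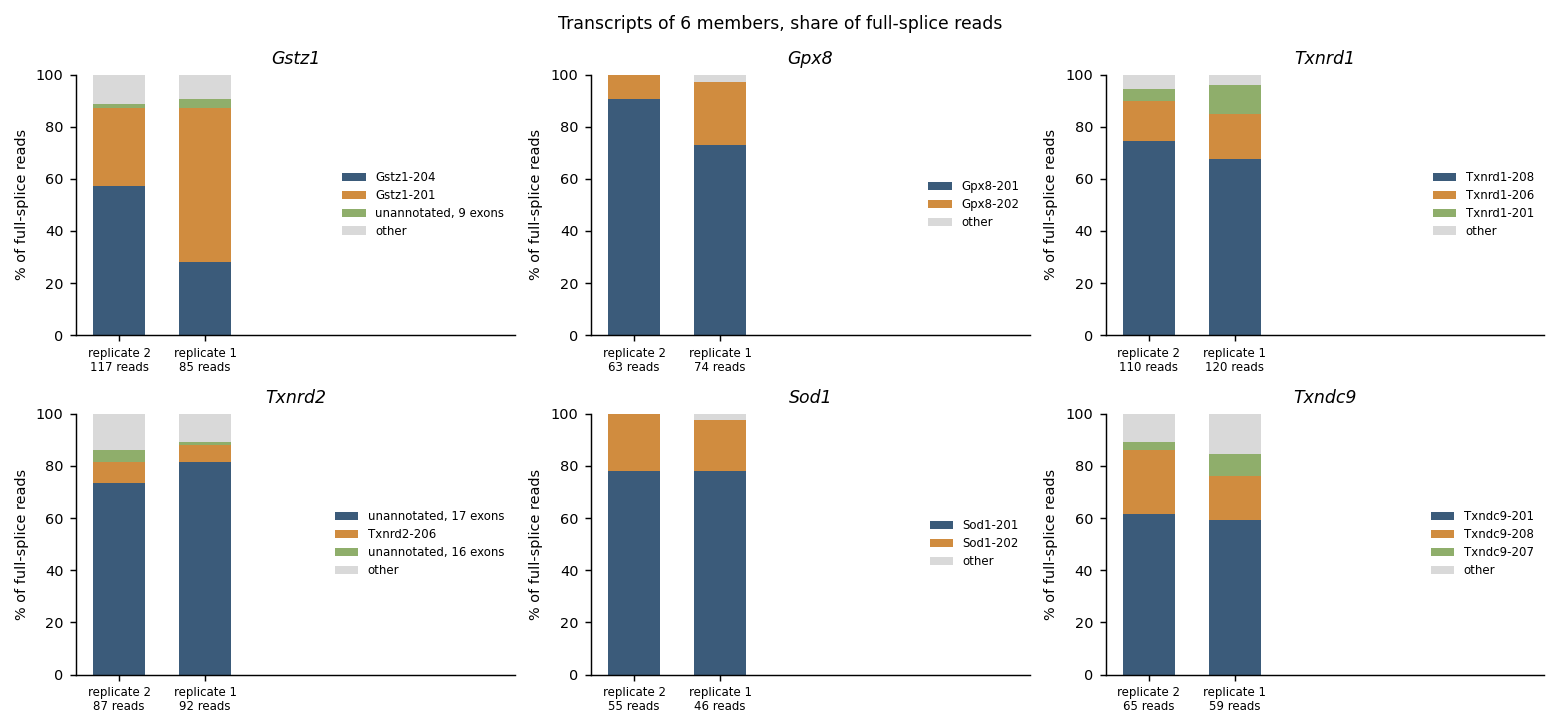
Share of full-splice reads held by the leading transcripts of Gstz1, Gpx8, Txnrd1, Txnrd2, Sod1 and Txndc9, in percent, replicate 2 left of replicate 1, with the number of full-splice reads under each bar. The leading colour changes between the libraries for Gstz1, and the unannotated 17-exon chain fills most of both Txnrd2 bars.

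Of the other members with a substantial second chain, Sod1 kept the first 2 introns in Sod1-202, a retained-intron transcript with 12 of 55 full-splice reads in replicate 2 (21.8%) and 9 of 46 in replicate 1 (19.6%). Txndc9 had an alternative first exon in Txndc9-208, with 16 of 65 reads in replicate 2 (24.6%) and 10 of 59 in replicate 1 (16.9%), and the same annotated 226 codons as Txndc9-201. Txndc11 was the most divided, its leading chain Txndc11-201 holding 20 of 38 reads in replicate 2 (52.6%) and 22 of 46 in replicate 1 (47.8%). In Gstt2 the leading chain held 27 of 32 reads in replicate 2 and 24 of 36 in replicate 1.

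Members known for compartment-specific forms mostly had 1 leading chain. Forms that share an intron chain, and differ only in the start of the first exon or in the start codon, were not told apart. Gpx4-202 held 1071 of 1100 full-splice reads in replicate 2 (97.4%) and 964 of 984 in replicate 1 (98.0%). Gpx4-201, which begins at an exon inside the first intron of Gpx4-202, the position from which the nuclear form of sperm is made, had 2 reads in replicate 2 and 3 in replicate 1. Prdx5-203, which begins at an extended second exon of Prdx5-201, held 21 of 272 reads in replicate 2 (7.72%) and 22 of 247 in replicate 1 (8.91%). Txn2-204 kept the intron before the coding start in 32 of 540 reads in replicate 2 (5.93%) and 36 of 635 in replicate 1 (5.67%). The leading chains of Glrx2, Gsr and Sod2 held between 94.8% and 98.0% of reads in each library.

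The members' reads fell more often into known models than those of all genes tested. Known models held 85.9% of their reads in replicate 2 and 87.7% in replicate 1, against 74.1% in replicate 2 and 76.8% in replicate 1 over all genes tested. Incomplete splice matches, models that match only part of an annotated chain and are here called truncated, held 9.85% in replicate 2 and 7.66% in replicate 1, against 13.1% in replicate 2 and 10.4% in replicate 1 over all genes tested. A few members had far more of them. Sod1 had 58.0% truncated reads in replicate 2 (49.5 to 66.1) and 35.3% in replicate 1 (26.7 to 45.0). Glrx5 had 32.2% in replicate 2 and 30.6% in replicate 1, all in a single-exon model of 465 bases. Prdx2 had 31.3% in replicate 2 and 26.4% in replicate 1, of which a 312-base model of the last exon held 340 reads in replicate 2 and 245 in replicate 1.

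For some members the main single-exon model differed between the 2 libraries in extent and in class. In Srxn1 it was a truncated model of 2388 bases, chr2:152108989-152111376, with 56 reads in replicate 2, and a genomic model of 5639 bases, chr2:152105738-152111376, with 38 reads in replicate 1. Both end at the same base, and the truncated share of Srxn1 was 17.5% in replicate 2 and 0.292% in replicate 1. Counted together, truncated and genomic reads of Srxn1 made up 17.5% in replicate 2 and 11.4% in replicate 1. In Sod1 it was a truncated model of 180 bases, chr16:90226150-90226329, with 29 reads in replicate 2, and a genomic model of 2906 bases that runs past the annotated end of the gene, chr16:90226150-90229055, with 20 reads in replicate 1. The sum of both classes in Sod1 was 58.0% in replicate 2 and 54.9% in replicate 1. The pair of models in Mgst1 was a truncated one of 624 bases with 56 reads in replicate 2 and a genomic one of 359 bases with 24 reads in replicate 1. In Gstz1 it was a truncated one of 1020 bases with 26 reads in replicate 2 and a genomic one of 564 bases with 12 reads in replicate 1. In Txndc11, a 75-base genomic model held 48 of 88 reads in replicate 2 (54.5%) and 31 of 80 in replicate 1 (38.8%), so under 50 of its reads in each library spanned spliced exons.

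**Figure D4:**
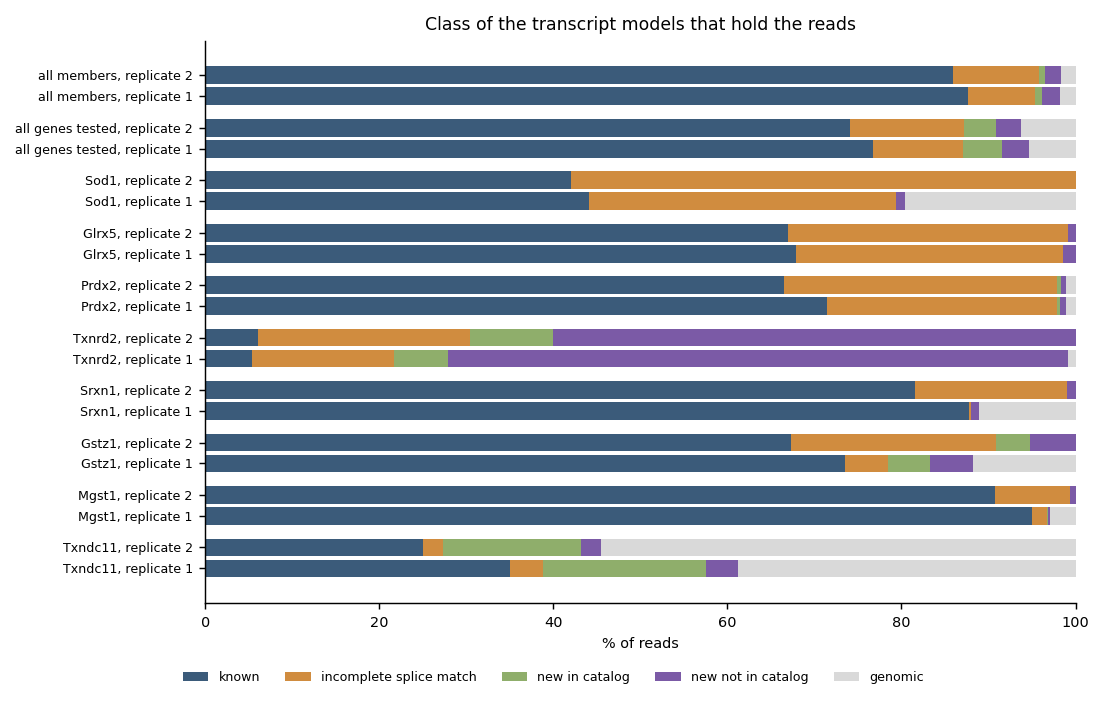
Percent of reads by class of transcript model for all members, all genes tested and 8 members, replicate 2 above replicate 1 in each pair. Sod1, Glrx5 and Prdx2 show wide truncated segments, Txnrd2 is mostly new not in catalog, and in Sod1, Srxn1, Gstz1 and Mgst1 replicate 1 has a genomic segment that replicate 2 lacks.

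The promoters of the members were searched for the core of the antioxidant response element, TGACNNNGC on either strand, the site bound by the factor that Nfe2l2 encodes. RefSeq's promoter table (GRCm38.p6, 300-base windows) matched 55 members in 77 windows. The letters were found in 12 of the 77 windows (15.6%), beside 12.4% of all 32851 windows, so the members' share was close to that of promoters at large. Among the 12 members with a match, Prdx1, Mgst1 and Gsta3 were called genes. The others were Srxn1, Txnrd1, Gclm, Sod1, Gstm5, Gstm7, Txndc2, Txndc5 and Txndc11. A match is only a match of letters, and neither Gstz1 window held one.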

How the data were processed

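Long-read RNA sequencing was done on 2 libraries of mouse adrenal gland. The tables deposited by the authors hold raw read counts of each transcript model, 1 table per library, and per the file headers each model carries a class, an exon number and a length. Per the submitters' processing notes and labels the build is mm10 with GENCODE M21. Aligner and filters: not given in the sources used here.

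Counts were summed per annotated gene and scaled to CPM without ERCC reads. The 2 libraries form 1 group, so edgeR's quasi-likelihood test could not be fitted. The tests set the reads of replicate 2 against those of replicate 1, so their unit is the read and no replication enters them. Genes with at least 10 reads were tested with an exact binomial test in SciPy 1.17.1, isoforms with Fisher's exact test, both adjusted over all genes. Intervals (Clopper-Pearson for ratios, Wilson for shares, 95%) and the limit of a 0 count cover counting error only, as do the p-values. TMM factors and an exact negative binomial test with an assumed coefficient of variation of 0.1 came from edgeR 4.0.16. Tests were run on simulated data drawn with counting error only, which cannot show how they behave with variation beyond counting. Gene coordinates and transcript sequences are GENCODE M21, promoters RefSeq. Named with values in each library were members with at least 100 reads or a call, and isoforms of members with a second chain of at least 10% or known compartment forms. The members and lists were chosen with earlier results of these data known.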

Additional observations from a re-analysis of the deposited data

How the results depend on the processing

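The counts of called members, 7 higher in replicate 2 and 1 higher in replicate 1, stayed within 1.5 times with known models only, full-splice reads only, a minimum of 50 reads, no minimum, and library sizes without hepatocyte and 10-fold genes. Known models only called 12.7% of members, beside 8.66% of all genes, and full-splice reads only 14.5%, beside 8.48%. The minimum of 50 reads called 14.6% beside 14.5%, no minimum 11.5% beside 4.78%, and those library sizes 18.2% beside 8.05%. Gained were Gpx4 with known models only, Gpx4 and Mgst3 with full-splice reads only, and Gpx4 and Gstm1 with those library sizes. The single calls of Gstz1 and Prdx2 were lost with known models only, full-splice reads only, spike-in scaling and the negative binomial test, that of Gstz1 also without a minimum, that of Gstp3 with the minimum of 50 reads, which left it untested, and those of Mgst1 and Prdx1 with the negative binomial test. The count higher in replicate 2 became 11 with TMM scaling, adding Gpx4, Gstm1, Mgst2 and Mgst3, 3 with the negative binomial test and its assumed variation, where Gsta3, Gstp3 and Gpx1 remained, and 2 with an added 2-fold threshold, where Gsta3 and Gstp3 remained. The count higher in replicate 1 became 2 with spike-in scaling, adding Txn2, and 0 with the 2-fold threshold, where 2 members were called in all. Over all genes tested, 1017 were called, against 368 with the negative binomial test and 504 with the 2-fold threshold. Under TMM scaling 9 ratios without a call turned above 1: Glrx3 1.05, Gsto1 1.02, Prdx3 1.05, Srxn1 1.04, Cat 1.00, Sod2 1.05, Sod3 1.06, Txndc15 1.04 and Txndc5 1.01. With known models only Sod3 became 1.02 and Txndc11 0.802, both without a call. The Gstz1 isoform call was kept under all 3 alternatives, with adjusted p between 0.0101 and 0.0352 (Fisher's exact test). The members' summed level was 13328 CPM without replicate 1, 12452 CPM without replicate 2 and 15686 CPM with known models only. With known models only, reads of all other model classes left both the counts and the library sizes. Of 43 single members with values, 32 levels and, of 40 leading-chain shares, 30 moved by more than the SD between libraries with known models only, and 15 of 43 truncated shares moved when genomic reads were added to them. With known models only, smaller library sizes raise the level of members read mostly in known models. The share of a known leading chain cannot fall when new chains are dropped. These counts therefore say little about how stable the values are.

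No paired analysis was possible because the series has a single group. With 2 libraries, differences between animals and between preparations cannot be told apart, and genes with few reads have wide intervals. Combining truncated and genomic reads was chosen after seeing the data.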
